A study of Mus musculus with 24 samples.

Results

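The genes described here encode receptors for glutamate and GABA, the main fast excitatory and inhibitory transmitters of the brain. They were chosen by gene symbol and family, as autosomal ionotropic and metabotropic glutamate receptor genes and GABA receptor genes, which gave 36 of the 21883 protein-coding genes in the gene table. Of these, 23 encode glutamate receptors and 13 encode GABA receptors. All 36 are included below, and no filter on low values was applied.

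Chromatin immunoprecipitation with sequencing (ChIP-seq) was performed on 4 mouse small cell lung cancer lines grown from tumours of the RPP model, which lacks the tumour suppressors Rb1, Trp53 and Rbl2. Lines 159-1 and 1014 came from tumours that carried a control guide (sgControl), and lines 236L and 236R came from tumours with a guide against Kdm6a (sgKdm6a). All 4 were early-passage lines, untreated, collected 24 h after plating, and all share the RPP background, so the groups differ by the guide alone as far as the labels state. Each group was thus 2 lines, each with 1 library per target, and the labels do not say whether 1 animal or 2 gave rise to 236L and 236R. The histone modifications H3K4me1, H3K4me2 and H3K27me3 were mapped in all 4 lines. The KDM6A protein was mapped in the control lines only, after an extra crosslink with 2 mM disuccinimidyl glutarate. The peak lists hold no measurement of the Kdm6a edit itself.

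Ionotropic glutamate receptors (AMPA, kainate, NMDA and delta types) are cation channels assembled from several subunits, whereas metabotropic glutamate receptors signal through G proteins. GABAA receptors are chloride channels made of alpha, beta, gamma, delta or rho subunits, and GABAB receptors are G protein-coupled pairs. Small cell lung cancer is a neuroendocrine tumour that shares many neuronal genes with the brain. H3K4me1 marks enhancers, H3K4me2 marks promoters and enhancers, and H3K27me3 is the repressive mark placed by Polycomb complex PRC2. KDM6A is an enzyme that demethylates H3K27, and it sits in complexes whose other subunits place methyl groups on H3K4.

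Each gene was described by the length of its window that peaks covered, in kb. The window ran from 10 kb before to 10 kb after the gene body. A mark counted as more in the mutant lines where both of them lay 2 kb or more above both control lines, and as less where both lay 2 kb or more below. With 2 lines against 2, an exact two-sided permutation test cannot give a p below 0.33, so no difference below passes a test, and each is a statement about these 4 lines.

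The libraries differed in how much they called. H3K27me3 peaks covered 45.4 Mb in 159-1, 110.3 Mb in 1014, 13.8 Mb in 236L and 30.5 Mb in 236R, so both control lists were longer than both mutant lists. The H3K27me3 list of 236L stood apart: 38.9% of its length lay under H3K4me2 peaks of the same line, against 4.61% to 11.54% in the other lines. H3K4me1 covered 109.2 to 134.6 Mb, H3K4me2 73.7 to 87.6 Mb and KDM6A 27.02 to 34.62 Mb. The 10 neuroendocrine marker genes held H3K4me2 in all 4 lines. The 8 macrophage marker genes had a mean H3K4me2 cover of 12.2%, 11.7%, 28.6% and 8.83% of their windows in 159-1, 1014, 236L and 236R. All 8 were covered in 236L, whereas Ptprc and Adgre1 were at 0 in both control lines and Adgre1, Itgam and Lyz2 were at 0 in 236R. The deposited names of the H3K4me2 lists of the control lines each name the other control line. The sample labels were followed, and for that mark 159-1 and 1014 may be exchanged, which leaves every comparison of the groups as it is.

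The upstream promoter sequences of 6 receptor genes are shown because a peak lay at the start. KDM6A was present within 2.5 kb of the start in both control lines at Grin1, Grm8, Gabbr1, Gabbr2 and Gabrg3, and Gabrr1 had H3K27me3 at its start in the control lines only. The KDM6A genes shown are not all, since 11 starts had KDM6A in both control lines. Those shown have their first start at the edge of the gene. At Gabrg3 KDM6A covered only 0.872 and 0.280 kb in 159-1 and 1014, below the minimum of 0.5 kb used for windows further below. The 250 bases before each start are from RefSeq (GRCm38.p6, the mm10 assembly), 5′ to 3′ on the strand of the gene, with every CpG dinucleotide in capitals. They lie at Grin1 at chr2:25319188-25319437 on the minus strand, Grm8 at chr6:28135147-28135396 on the minus strand, Gabbr1 at chr17:37045716-37045965 on the plus strand, Gabbr2 at chr4:46991715-46991964 on the minus strand, Gabrg3 at chr7:57387216-57387465 on the minus strand and Gabrr1 at chr4:33132306-33132555 on the plus strand.
Grin1: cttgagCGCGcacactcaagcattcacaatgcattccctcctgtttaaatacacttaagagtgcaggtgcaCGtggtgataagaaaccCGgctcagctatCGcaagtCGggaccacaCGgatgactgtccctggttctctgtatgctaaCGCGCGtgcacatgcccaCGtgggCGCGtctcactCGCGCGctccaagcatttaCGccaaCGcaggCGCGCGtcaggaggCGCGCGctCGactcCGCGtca
Grm8: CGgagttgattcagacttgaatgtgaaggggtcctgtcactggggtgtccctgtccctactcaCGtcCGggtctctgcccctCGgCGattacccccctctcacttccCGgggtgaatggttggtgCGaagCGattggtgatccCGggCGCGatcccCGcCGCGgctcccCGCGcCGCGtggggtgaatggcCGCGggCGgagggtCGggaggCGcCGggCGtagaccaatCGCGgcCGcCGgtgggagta
Gabbr1: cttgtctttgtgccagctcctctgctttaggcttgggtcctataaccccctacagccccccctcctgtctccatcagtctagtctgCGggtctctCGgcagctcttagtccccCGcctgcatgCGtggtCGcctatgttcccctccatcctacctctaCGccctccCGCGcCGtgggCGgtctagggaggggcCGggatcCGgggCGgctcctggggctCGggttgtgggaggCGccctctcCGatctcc
Gabbr2: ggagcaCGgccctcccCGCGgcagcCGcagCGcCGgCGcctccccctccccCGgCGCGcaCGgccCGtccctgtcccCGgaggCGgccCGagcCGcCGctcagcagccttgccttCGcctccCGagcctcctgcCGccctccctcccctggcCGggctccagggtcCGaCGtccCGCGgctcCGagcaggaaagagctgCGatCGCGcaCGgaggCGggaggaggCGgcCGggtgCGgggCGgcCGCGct
Gabrg3: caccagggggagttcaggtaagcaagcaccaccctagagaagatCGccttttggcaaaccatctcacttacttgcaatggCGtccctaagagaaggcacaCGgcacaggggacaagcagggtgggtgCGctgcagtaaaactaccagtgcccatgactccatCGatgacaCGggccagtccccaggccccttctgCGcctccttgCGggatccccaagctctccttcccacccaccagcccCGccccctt
Gabrr1: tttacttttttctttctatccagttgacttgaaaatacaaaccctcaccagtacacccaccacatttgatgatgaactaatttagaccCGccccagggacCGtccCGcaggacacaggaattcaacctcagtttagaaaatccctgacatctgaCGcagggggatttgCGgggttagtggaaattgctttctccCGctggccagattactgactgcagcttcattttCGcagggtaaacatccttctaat

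The 6 sequences differ widely in CpG, the dinucleotide that is dense in CpG island promoters. Gabbr2 had 37 CpG in these 250 bases, Grm8 29, Grin1 27, Gabbr1 16, Gabrg3 9 and Gabrr1 7. RefSeq promoters were available for 27 of the 36 genes. In the 300 bases from 250 before to 50 after the first start, these 27 held 2 to 50 CpG with a median of 13, against a median of 7 over 32851 promoters. The 32851 include further starts of the same genes, whereas for the receptor genes only the first start was counted. The further starts of Gabrb1, Gabrb2, Grm7 and Grm8 held 2 to 15 CpG, so the 2 sets of promoters were not counted alike. Of the 27, 11 had 20 or more CpG, a count reached by 26.5% of all promoters. Grik3 had the most, with 50, followed by Gabbr2 with 46 and Grik4 with 42. The TATA box TATAAA, searched on both strands, was found in 2 of the 27, Gabrb2 and Grin3b, and in 13.6% of all promoters.

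Most receptor starts carried H3K4me2, and many carried H3K27me3 as well. Within 2.5 kb of the start, H3K4me2 was present at 24 of 27 genes in 159-1, 21 in 1014, 24 in 236L and 24 in 236R, and 21 had it in all 4 lines. H3K27me3 was present at 16, 20, 18 and 13 of the 27 in the same order, and 10 had it in all 4 lines. Peaks of both marks overlapped at 14, 15, 18 and 12 starts. At the 11 starts with 20 or more CpG, the median H3K27me3 length in this 5 kb stretch was 0.829, 2.77, 2.17 and 1.69 kb in the 4 lines. At the 16 with fewer it was 0.155, 1.46, 0.346 and 0 kb. H3K4me1 was present at 19, 19, 12 and 21 starts, so 236L had the fewest. KDM6A was present at 14 starts in 159-1 and 11 in 1014, and those 11 were shared by both lines. No share over all promoters is given here for the counts of peaks at starts, so they describe the 27 genes alone.

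**Figure D1:**
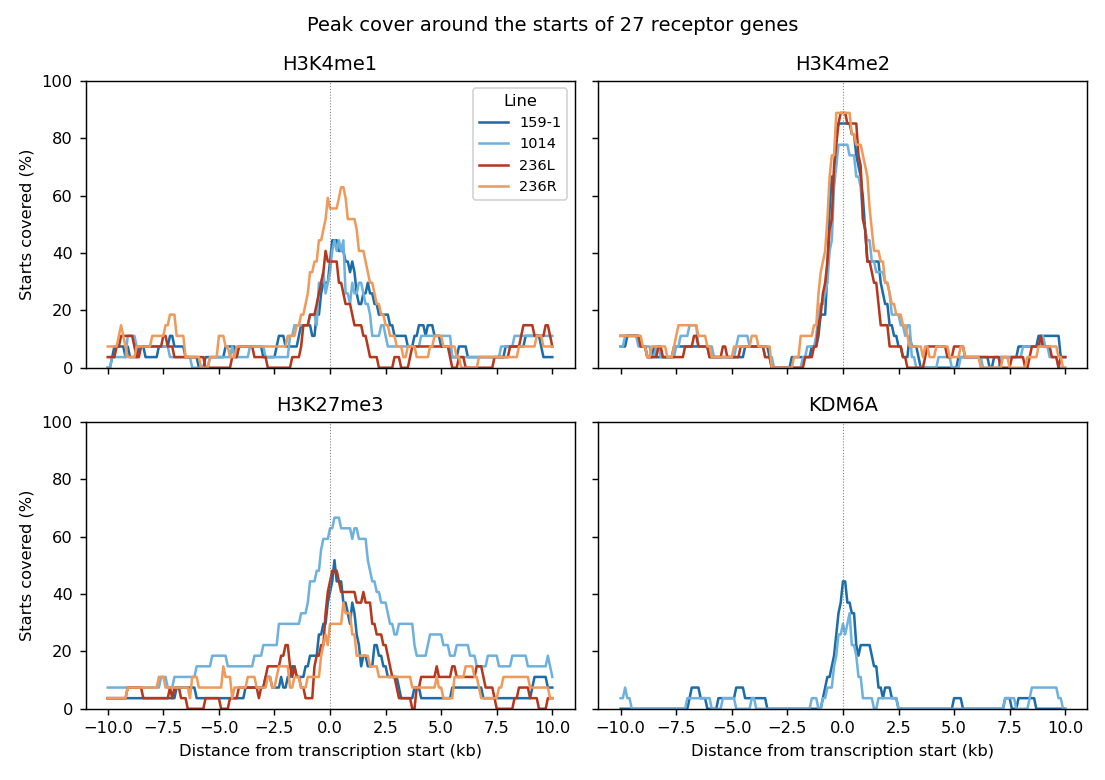
Share of the 27 receptor starts (%) covered by peaks at each distance from the start (kb, positive in the direction of transcription), 1 curve per line and 1 panel per target. H3K4me2 peaked at 77.8% to 88.9% of starts in the 4 lines, and H3K27me3 peaked at 66.7% in 1014 and 37.0% in 236R.

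The same was seen with a measure that every gene in the table has, the 2.5 kb on each side of both gene ends. At least 0.5 kb of H3K27me3 lay there in all 4 lines at 11 of the 36 receptor genes (30.6%), against 4.47% of all genes. The 11 were Gria4, Grik1, Grik3, Grik4, Grin2a, Grin2c, Grin3a, Grm2, Grm6, Gabra2 and Gabbr2. H3K4me2 met the same rule at 26 of 36 (72.2%), against 63.3% of all genes, and H3K4me1 at 15 of 36 (41.7%), against 36.7%. Over the whole window, mean H3K27me3 cover of the receptor genes was 5.00%, 10.3%, 4.73% and 4.02% in 159-1, 1014, 236L and 236R, against 3.16%, 6.43%, 1.68% and 2.67% over all genes. Mean H3K4me1 cover was 6.55%, 7.10%, 4.31% and 6.52%, against 9.14%, 10.3%, 12.3% and 9.57% over all genes. Mean H3K4me2 cover was 5.17%, 4.92%, 4.35% and 5.24%, against 9.94%, 9.64%, 9.86% and 8.98%. The mean shares of both H3K4 marks were thus below those of all genes in each of the 4 lines. A share also depends on window length, which ranged from 26.8 kb at Grin3b to 941.9 kb at Grm7. Neither the shares nor the 2 kb calls below were adjusted for it. At the gene ends, both H3K4 marks met the rule above at a larger share of receptor genes than of all genes. For H3K27me3 the mean of 159-1 rested largely on Grik3, whereas that of 236L hardly did. Without Grik3, a choice made after seeing the data, the other 35 genes had 2.66%, 8.15%, 4.66% and 3.03%. In 159-1 this is below the mean of all genes, and in 1014, 236L and 236R it is above.

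**Figure D2:**
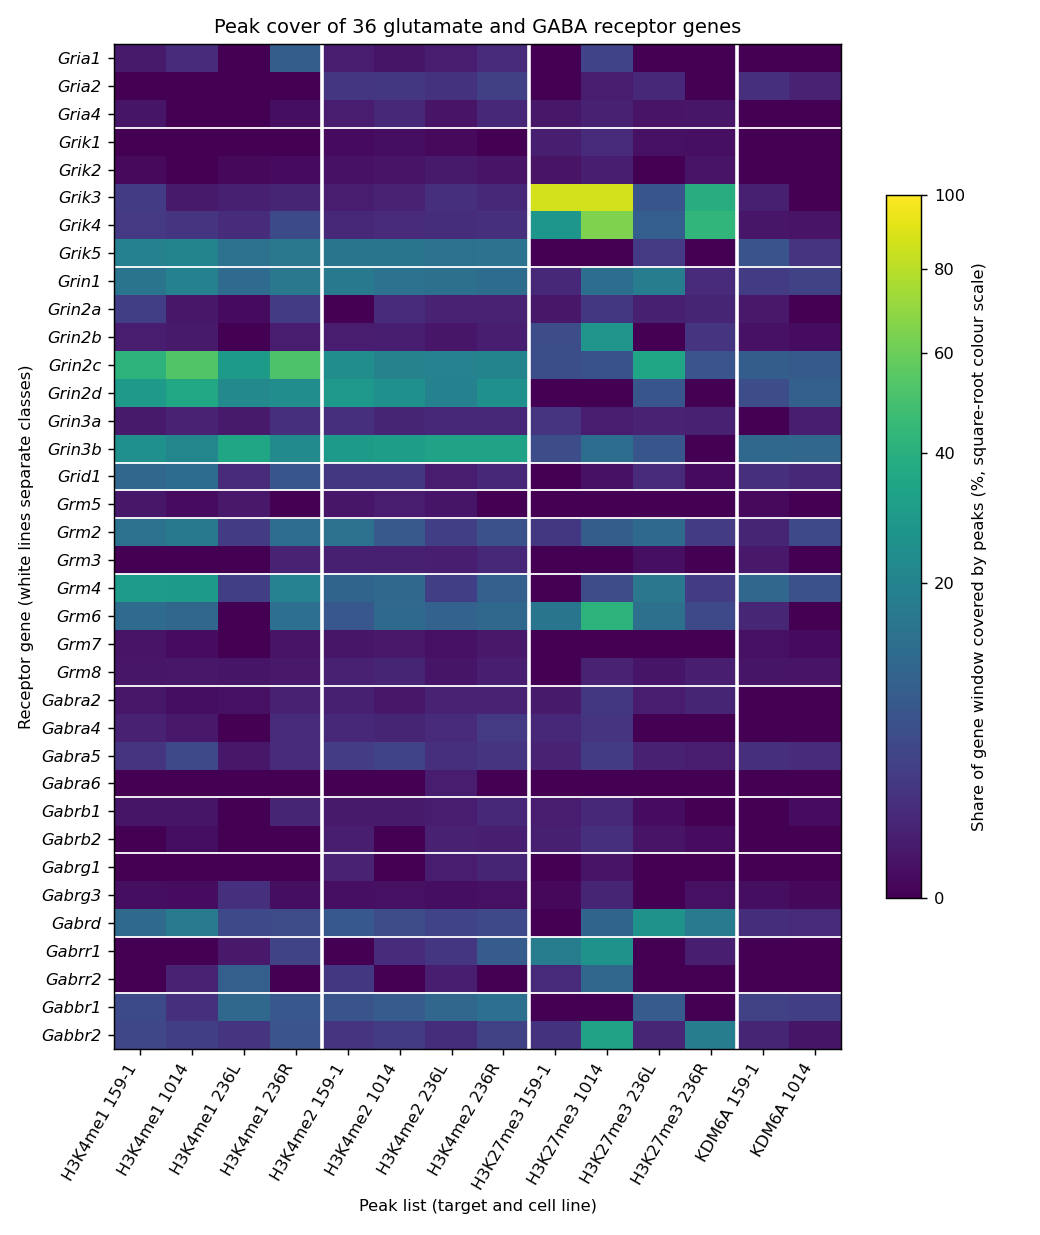
Share of each gene window covered by peaks (%, square-root colour scale) for the 36 receptor genes (rows, grouped by class) in the 14 peak lists (columns). Grik3 is the brightest row under H3K27me3, at 86.8% and 87.0% in the control lines, and Grin2c, Grin2d and Grin3b are bright under H3K4me1 and H3K4me2.

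Between the groups, H3K27me3 was less in both mutant lines at 5 of the 36 receptor genes (13.9%), where 6.43% of all genes were. It was more at 1 of 36 (2.78%), where 0.425% of all genes were. By any amount, 11 were less and 2 more, with 12.2% and 2.13% of all genes. H3K4me1 was less at 5 of 36 (13.9%) and more at 0, with 7.44% and 5.30% of all genes. By any amount, 7 were less and 2 more for H3K4me1, with 14.7% and 25.1% of all genes. H3K4me2 was less at 2 of 36 (5.56%) and more at 0, with 6.37% and 1.36% of all genes. By any amount, 11 were less and 11 more for H3K4me2, with 25.4% and 13.9% of all genes. The median difference in covered share, mutant minus control mean, was −0.400 percentage points for H3K27me3, −0.000426 for H3K4me1 and 0.0520 for H3K4me2, against 0, 0.367 and 0 over all genes.

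**Figure D3:**
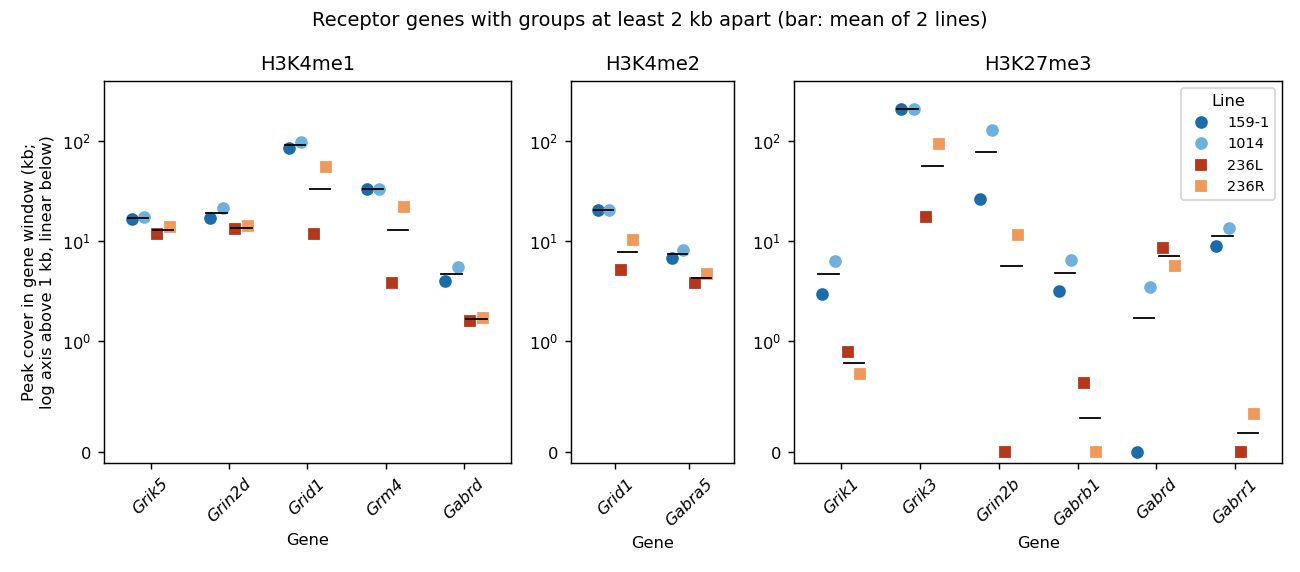
Peak cover in the gene window (kb, log axis above 1 kb and linear below) of each receptor gene whose groups were at least 2 kb apart, with control lines as circles, mutant lines as squares and black bars for the mean of 2 lines. Grik3 has the widest gap under H3K27me3, from 94.3 kb in 236R to 211.8 kb in 159-1, and Gabrd is the only gene with the mutant lines above.

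Among the AMPA receptor genes, which encode the channels of fast excitatory transmission, none had groups 2 kb apart in any mark. Gria2 encodes the subunit that limits calcium entry. Its H3K4me2 cover was 3.57, 3.70, 2.99 and 5.23 kb in 159-1, 1014, 236L and 236R, and it had no H3K4me1 in any line. KDM6A covered 2.71 kb there in 159-1 and 1.28 kb in 1014. Gria1 had 29.2 kb of H3K4me1 in 236R but 1.70, 5.62 and 0 kb in 159-1, 1014 and 236L, so the 2 mutant lines lay on opposite sides of the control lines.

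The kainate receptor genes, whose channels modulate transmission on both sides of the synapse, held the longest H3K27me3 domains. Grik3 (chr4:125490259-125714173) encodes a low-affinity kainate subunit. H3K27me3 covered 211.8 kb of its 243.9 kb window in 159-1, 212.1 kb in 1014, 17.5 kb in 236L and 94.3 kb in 236R. The control lines were almost equal and both lay 117.5 kb or more above the mutant lines, with group means of 212.0 ± 0.220 and 55.9 ± 54.3 kb (SD, n = 2 lines each). The control cover, 86.8% and 87.0% of the window, was at the 99.7th percentile of all genes. H3K27me3 reached 10% of the window in both control lines at 4 of the 36 receptor genes (Grik3, Grik4, Grm6 and Gabrr1, 11.1%), against 8.19% of all genes. In 159-1 the cover came from 27 peaks of up to 32.8 kb and in 1014 from 30 of up to 53.6 kb. In 236R it was 57 peaks of up to 11.0 kb and in 236L 11 of up to 7.17 kb. What was left in 236L lay mainly around the start. The 5 kb around the first start were covered by 5.00, 5.00, 5.00 and 4.27 kb in the 4 lines. Away from the ends, cover inside the gene was 188.0, 188.0, 7.32 and 80.3 kb. The stretch around the start was covered to its full length in all lines but 236R, so a difference in signal there could not be seen by this measure.

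The H3K27me3 of Grik3 also moved with list length. When each H3K27me3 list was reduced to equal length by taking its peaks of highest deposited fold, Grik3 held 57.1, 42.9, 17.5 and 51.7 kb in the order 159-1, 1014, 236L and 236R. The groups then overlapped. No receptor gene was then less in both mutant lines, where 1.37% of all genes were. There were 4 (11.1%) that were more, namely Grik4, Grin2c, Grm8 and Gabbr2, where 0.9002% of all genes were. With only peaks of −log10 q at or above 3, Grik3 was the single receptor gene that stayed less, where 2.67% of all genes were, at 93.2, 132.5, 7.17 and 11.0 kb. Library depth is unknown in peak lists, so a shorter domain and a less deeply sequenced or less enriched library cannot be told apart here.

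**Figure D4:**
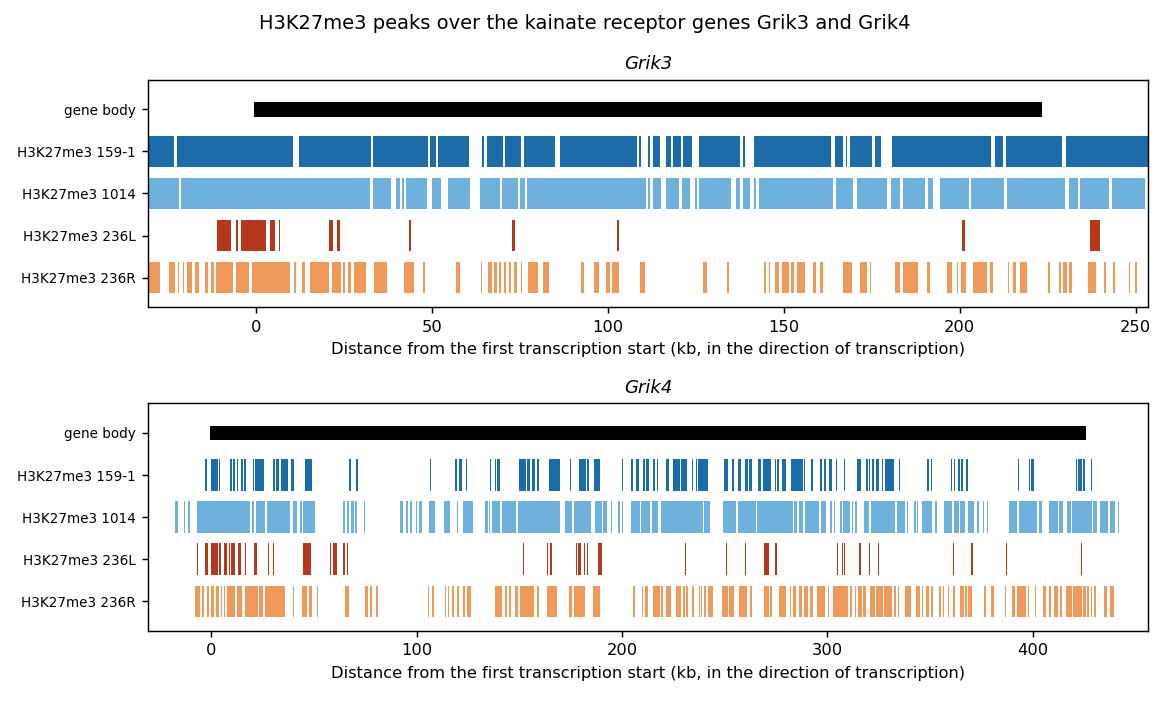
H3K27me3 peaks (coloured bars) in the 4 lines over Grik3 and Grik4, against distance from the first transcription start (kb), with the gene body in black. Over Grik3 the control lines are covered nearly throughout, whereas 236L has peaks mainly around the start and 236R has 57 separate peaks.

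Grik4, which encodes a high-affinity kainate subunit, had 123.0, 290.8, 40.4 and 194.2 kb of H3K27me3 in 159-1, 1014, 236L and 236R. Its groups overlapped, because 236R lay above 159-1. Its start was covered in every line, by 3.14, 5.00, 3.14 and 2.90 kb. Grik1, another low-affinity subunit, had far less, with 2.93, 6.40, 0.90 and 0.71 kb, and was less in both mutant lines by 2.03 kb. Grik2, which encodes the most studied low-affinity subunit, had 2.01, 4.86, 0 and 2.01 kb, and its groups were not 2 kb apart. Grik5 encodes the other high-affinity subunit and differed in another mark. H3K4me1 covered 16.6, 17.6, 11.9 and 13.8 kb, less in both mutant lines by 2.86 kb. H3K4me2 at Grik5 covered 13.1, 12.9, 12.3 and 12.3 kb, and H3K27me3 was at 0 in all lines but 236L, which had 2.497 kb. The window of Grik5 also reaches into neighbouring genes, so a part of this cover can belong to those. KDM6A covered 5.78 kb there in 159-1 and 2.08 kb in 1014, but at Grik4 only 1.65 and 1.23 kb.

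The NMDA receptor genes encode the calcium-permeable channels of synaptic plasticity. By share of the window, the short genes of this family held the most H3K4 methylation. Grin2c, a subunit known from the cerebellum, had 15.9, 20.3, 11.3 and 19.9 kb of H3K4me1 in a window of 38.1 kb and 9.17, 7.67, 7.54 and 7.70 kb of H3K4me2. Grin3b, which encodes a glycine-binding subunit, had 8.01, 8.31, 8.96 and 8.91 kb of H3K4me2 in 26.8 kb, the highest share of the 36 genes. Its window also holds Wdr18 and Tmem259, and that of Grin2c holds Tmem104 and Fdxr. Grin2d, a subunit of immature neurons and interneurons, had 17.1, 21.4, 13.2 and 14.1 kb of H3K4me1, less in both mutant lines by 2.96 kb. Its H3K4me2 was 16.91, 15.04, 11.55 and 14.92 kb, and the groups were not 2 kb apart. The long gene Grin2a, which encodes a main subunit of the adult brain, had 15.2, 1.77, 0.418 and 14.4 kb of H3K4me1 in a window of 448.2 kb, and its groups overlapped. The window of Grin2d holds Kcnj14, Grwd1 and Kdelr1, so a part of this cover can belong to those genes.

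Grin1 encodes the subunit that every NMDA receptor needs. Its H3K4me2 was 7.81, 6.75, 6.58 and 6.01 kb, and its H3K4me1 was 7.18, 9.35, 5.85 and 7.69 kb. H3K27me3 at Grin1 was 0.654, 6.27, 8.65 and 0.727 kb, so that 236L was highest and 236R resembled 159-1. Grin2b (chr6:135713221-136173615), which encodes the main subunit of the young forebrain, had 26.6, 129.8, 0 and 11.4 kb of H3K27me3. Both mutant lines lay below both control lines, by 15.2 kb, but the control lines themselves lay much further apart than that. At Grin2c the order was different, with 2.19, 2.43, 13.4 and 2.66 kb, and 236L alone was high. KDM6A covered 3.35 and 3.03 kb at Grin2c, 3.31 and 5.60 kb at Grin2d, 3.09 and 2.95 kb at Grin3b, 1.48 and 1.89 kb at Grin1 and 1.21 and 0.551 kb at Grin2b in 159-1 and 1014.

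Grid1 (chr14:34820003-35583387) encodes a delta receptor, which links synapses across the cleft and does not open on glutamate. Its H3K4me1 cover was the longest of the 36 genes in every line but 236L, with 85.2 kb in 159-1, 98.6 kb in 1014, 11.7 kb in 236L and 55.3 kb in 236R. Both mutant lines lay below both control lines by 29.9 kb or more, with group means of 91.9 ± 9.45 and 33.5 ± 30.8 kb (SD, n = 2 lines each). H3K4me2 followed, with 20.7, 20.7, 5.17 and 10.3 kb, and the gap was 10.4 kb. Grid1 was the only receptor gene at which both H3K4 marks were less in both mutant lines by 2 kb or more. The difference lay inside the gene. H3K4me1 away from the gene ends was 84.4, 97.0, 7.62 and 51.8 kb, whereas within 2.5 kb of the ends it was 0.804, 1.37, 3.68 and 3.01 kb, higher in the mutant lines. H3K4me2 at the ends was nearly equal, at 2.60, 2.86, 2.90 and 3.11 kb. KDM6A covered 14.3 kb in 159-1 and 9.64 kb in 1014, the most of any receptor gene in kb. As a share of this long window it was 1.83% and 1.23%, below the means of 3.81% and 3.26% over all genes. At the 5.94 kb of Grid1 that KDM6A covered in both control lines, H3K4me2 lay over 5.36, 4.86, 1.70 and 3.66 kb. H3K4me1 lay over 4.51, 4.75, 1.43 and 5.58 kb of the same bases, so 236R was highest there.

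Among the metabotropic receptor genes, Grm4 (chr17:27422387-27513826) resembled Grid1. It encodes a presynaptic receptor of group III, which lowers transmitter release. H3K4me1 covered 33.6, 32.9, 3.83 and 21.9 kb, less in both mutant lines by 11.0 kb. Inside the gene it was 30.1, 27.2, 1.25 and 17.2 kb and at the ends 3.26, 4.02, 2.09 and 3.83 kb. H3K4me2 was 11.7, 12.8, 3.86 and 10.2 kb, which is lower in both mutant lines but by less than 2 kb. KDM6A covered 12.2 kb in 159-1 and 6.94 kb in 1014, second to Grid1 in kb. H3K27me3 at Grm4 was 0, 5.73, 17.4 and 3.43 kb, and at Grid1 0, 1.82, 11.2 and 0.714 kb, so that in both genes 236L had the most H3K27me3 and the least H3K4me1.

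These values of 236L moved together with the macrophage markers described above, whose mean H3K4me1 cover was 14.1%, 13.4%, 39.5% and 10.7% in 159-1, 1014, 236L and 236R, and with the neuroendocrine markers, whose mean H3K4me2 cover was 29.4%, 33.3%, 18.2% and 30.0%. Their part in the result was not tested.

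**Figure D5:**
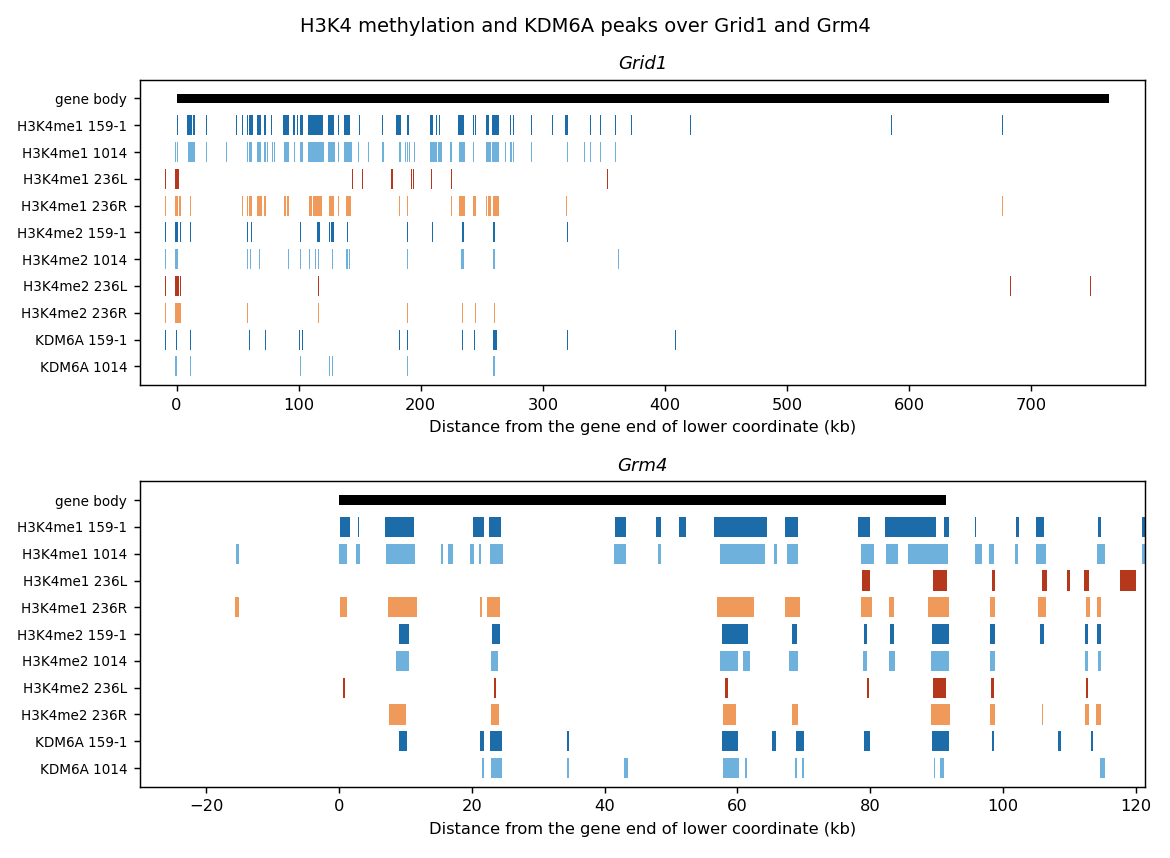
Peaks of H3K4me1, H3K4me2 and KDM6A (coloured bars by line) over Grid1 and Grm4, against distance from the gene end of lower coordinate (kb), with the gene body in black. KDM6A was not mapped in 236L or 236R, and 236L shows few H3K4me1 peaks inside either gene (12 in the window of Grid1 and 3 in that of Grm4, against 51 and 14 in 159-1).

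The other metabotropic genes had shorter cover. Grm6, the receptor of retinal ON bipolar cells, had 5.39, 14.9, 4.85 and 1.74 kb of H3K27me3 in a window of 35.8 kb, with both mutant lines lowest but by under 2 kb. Grm8 and Grm7 encode other presynaptic receptors of group III. Grm8 had 7.27, 9.60, 2.81 and 6.31 kb of H3K4me2 and KDM6A over 2.94 and 2.60 kb. Grm7 had 3.67, 4.47, 1.99 and 4.39 kb of H3K4me2, KDM6A over 1.92 and 0.904 kb, and no H3K27me3 in any line. Grm2 and Grm3, the group II autoreceptors, and Grm5, the group I receptor coupled to calcium release, had at most 5.12 kb of any mark in any line. Grm5 had no H3K27me3 at all.

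Most GABAA receptor genes had little H3K4 methylation. Gabra6, a subunit of cerebellar granule cells, had no peak of any target except 0.231 kb of H3K4me2 in 236L. Gabra5, a subunit of extrasynaptic receptors in the hippocampus, had 6.77, 8.12, 3.82 and 4.74 kb of H3K4me2 in 159-1, 1014, 236L and 236R, less in both mutant lines by 2.04 kb. KDM6A covered 3.69 and 3.36 kb there. Gabra4 and Gabrb1 lie back to back on chromosome 5 and share a start region, so their windows overlap and they are not independent. H3K27me3 in the window of Gabrb1 was 3.20, 6.44, 0.621 and 0 kb, less in both mutant lines by 2.58 kb. In that of Gabra4 it was 1.47, 2.61, 0 and 0 kb, which also separated the groups but by less than 2 kb. At their shared start, H3K27me3 was 1.47, 2.61, 0 and 0 kb, whereas H3K4me2 was 1.38, 1.17, 1.50 and 3.14 kb.

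Gabrd encodes the delta subunit of extrasynaptic receptors and was the only receptor gene with more H3K27me3 in both mutant lines, at 0, 3.45, 8.64 and 5.61 kb and a gap of 2.16 kb. This call was lost under both stricter settings. At equal list length Gabrd held 0, 0, 8.64 and 1.84 kb of H3K27me3, with the groups under 2 kb apart. Peaks of −log10 q at or above 3 left 0, 0, 3.82 and 0 kb. H3K4me1 in the same window was 3.97, 5.53, 1.59 and 1.72 kb, less in both mutant lines by 2.25 kb. Within the gene body alone H3K4me1 was 1.38, 1.52, 1.14 and 1.24 kb, so the gap came from the flanks, where the window also holds Cfap74. Gabrr1 (chr4:33132556-33163588) encodes a rho subunit known from the retina, and its H3K27me3 was 9.04, 13.6, 0 and 0.348 kb. Both mutant lines were at or near 0, and the gap was 8.69 kb. With lists of equal length, or with only peaks of −log10 q at or above 3, no H3K27me3 was left at Gabrr1 in any line. The control cover thus came from the weaker peaks of the longer lists. At the start printed above, H3K27me3 was 1.24, 2.88, 0 and 0 kb, and no H3K4me1 or H3K4me2 was found there in any line. Inside the gene H3K4me2 was 0, 0, 0.619 and 2.80 kb. Its neighbour Gabrr2 had 0.867, 6.31, 0 and 0 kb of H3K27me3, with the groups apart by under 2 kb. Gabra2, Gabrb2, Gabrg1 and Gabrg3, which encode further subunits of the synaptic channel, had groups less than 2 kb apart in every mark. A single library stood out among them, since Gabrg3 had 12.4 kb of H3K4me1 in 236L and 0.767 to 1.01 kb in the other lines.

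The GABAB receptor works as a pair of Gabbr1, which binds GABA, and Gabbr2, which couples to the G protein. Their chromatin differed. Gabbr1 had 3.24, 4.01, 5.31 and 6.47 kb of H3K4me2, higher in both mutant lines by under 2 kb, and H3K27me3 in 236L alone, at 4.01 kb. Gabbr2 had 7.54, 115.4, 4.13 and 61.2 kb of H3K27me3, a spread within each group larger than the difference between them. At its start, the most CpG-rich of the sequences shown, H3K4me2 was 3.05, 3.35, 2.32 and 3.63 kb and H3K27me3 2.90, 5.00, 2.17 and 2.69 kb, and the 2 overlapped in every line. KDM6A covered 1.81 and 1.67 kb at Gabbr1 and 3.87 and 1.05 kb at Gabbr2.

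KDM6A covered at least 0.5 kb of the window in both control lines at 15 of the 36 receptor genes (41.7%), against 54.9% of all genes. Mean KDM6A cover was 1.78% in 159-1 and 1.57% in 1014, against 3.81% and 3.26% over all genes. Of the 15, H3K4me1 was less in both mutant lines at 4 (Grik5, Grin2d, Grid1 and Grm4), H3K4me2 at 2 (Grid1 and Gabra5) and H3K27me3 at 1 (Grin2b). Of the other 21, H3K4me1 was less at 1 (Gabrd, with KDM6A over 0.569 and 0.470 kb), H3K4me2 at 0 and H3K27me3 at 4. Over all genes the same rule gave H3K4me1 less at 12.3% of genes with KDM6A and 1.53% of those without, H3K4me2 at 11.3% and 0.345%, and H3K27me3 at 3.76% and 9.68%. By these counts, lower H3K4 methylation fell mostly at genes with KDM6A and lower H3K27me3 mostly at genes without, among the receptor genes and among all genes. For the receptor genes the split rests on few calls. A gene can be called less only where both control lines hold 2 kb or more of the mark. KDM6A was mapped in those same control lines, and genes were not matched for control cover. The split therefore cannot be told apart from a difference in control cover.

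The exact bases that KDM6A covered in both control lines summed to 31.7 kb over the 36 genes. H3K4me2 lay over 89.8%, 87.4%, 62.2% and 79.8% of them in 159-1, 1014, 236L and 236R, and over 90.4%, 89.5%, 67.3% and 79.8% of all such bases in the genome. H3K4me1 lay over 48.6%, 53.5%, 37.9% and 63.2%, and genome-wide over 44.5%, 44.3%, 31.5% and 50.7%. On these bases H3K4me2 was thus lower in both mutant lines and H3K4me1 was not, since 236R was highest. The bases were picked by peaks of the control lines alone, a choice that can favour higher H3K4me2 in those lines. Peaks of the mutant lines played no part in it, so the H3K4me2 difference cannot be told apart from an effect of the choice. H3K27me3 lay over 3.61%, 9.84%, 32.6% and 5.69% of these bases, and genome-wide over 1.66%, 3.25%, 8.45% and 1.83%. Only 236L was high, and its H3K27me3 list is the one that overlapped H3K4me2 most.

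Genes that act with these receptors were set beside them. Equal list lengths and the stricter q were not applied to the gene lists below. Their H3K27me3 counts therefore carry the limit of list length given for Grik3. The 17 genes for synthesis, transport and breakdown of glutamate and GABA had H3K27me3 less in both mutant lines at 7 (41.2%, against 6.43% of all genes) and more at 0. The widest gap was at Slc6a11, a GABA transporter of astrocytes, with 78.1, 110.0, 4.91 and 38.4 kb. In this list H3K4me1 was more at 3 (17.6%) and less at 1 (5.88%), against 5.30% and 7.44% of all genes. H3K4me2 was more at 1 (5.88%) and less at 2 (11.8%), against 1.36% and 6.37%. Gad2, which makes GABA, was the gene with more H3K4me2, at 0, 0, 2.81 and 2.96 kb. Abat, which degrades GABA, was less in H3K4me1, at 19.1, 17.8, 2.12 and 8.90 kb.

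Among 27 auxiliary subunit and scaffold genes, H3K27me3 was less at 5 (18.5%) and more at 0, with the same shares of all genes as above. Shank2, a postsynaptic scaffold, had 100.4, 131.3, 9.89 and 8.33 kb, and its relative Shank3 had 52.7, 66.9, 6.28 and 19.3 kb. H3K4me1 was less at 5 (18.5%) and more at 2 (7.41%), and H3K4me2 less at 3 (11.1%) and more at 1 (3.70%). Grip1, which anchors AMPA receptors, had 53.8, 54.3, 0.852 and 22.8 kb of H3K4me1. Homer2, which tethers metabotropic receptors, had 46.17, 45.23, 0.531 and 34.95 kb. As at Grid1 and Grm4, 236L was lowest and 236R lay between it and the control lines. Cacng8, an AMPA receptor auxiliary subunit, was the one with more H3K4me2, at 2.11, 1.74, 8.26 and 7.51 kb. Among 21 other ligand-gated channel genes, H3K27me3 was less at 5 (23.8%) and more at 0, with Chrna1, a muscle acetylcholine receptor subunit, at 10.0, 17.1, 0 and 0 kb. H3K4me1 was more at 1 and less at 1 there, and H3K4me2 was less at 1 (4.76% each). KDM6A in both control lines was found at 8 of the 17 (47.1%), 18 of the 27 (66.7%) and 8 of the 21 (38.1%) genes of these lists, against 54.9% of all genes.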

How the data were processed

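ChIP-seq peak lists of 14 libraries were used; the 10 input libraries were not analysed here. Bowtie2 2.4.2, MACS3 3.0.0a7 and mm10 are named in the submitters' processing notes; for the peak threshold, the control track and duplicate handling, the sources used here name nothing. Each list is of 1 library. Per peak, the authors deposited a fold enrichment (a ratio) and −log10 p and −log10 q values, which served here for ranking and filtering inside a list alone. No list gives counts, so depth is unknown and no interval was computed.

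Peaks were merged and their cover measured (Python 3.11.15, numpy 2.4.6, pandas 2.3.3) in windows of 21883 protein-coding genes of a RefSeq table (GRCm38.p6, which is mm10). All 36 members matched by symbol, and 27 had a promoter entry. Members and gene lists were chosen with earlier results of these data known. Values per line were printed for genes with separated groups, with the highest cover or with KDM6A; from other lists, at most 4 genes per list and mark with the widest gaps. Group calls use no p-value. The cover and call steps were tested on simulated peaks. Alternatives were stricter peaks, equal list lengths, other windows and separations, merged overlapping members, list names in place of labels, and leaving out each line. Some items are not reported here.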

Additional observations from a re-analysis of the deposited data

How the results depend on the processing

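The counts rest on few genes and on list length, with depth unknown; the share of all genes under the same setting is in parentheses. For H3K27me3 less in both mutant lines, the 5 genes became 1 (2.67%) with −log10 q of at least 3, 0 (1.37%) at equal covered length, 3 (3.52%) with a separation of 5 kb, 2 (6.04%) with 5 percentage points, and 6 to 18 with 1 line left out: 18 (16.9%) without 159-1 and 8 (10.1%) without 236R. For H3K27me3 more, the 1 gene became 0 (0.0457%) with stricter q, 4 (0.9002%) at equal length, 0 (0.114%) with 5 kb, and 1 to 8 with 1 line left out: 3 (1.00%) without 1014 and 8 (4.02%) without 236R. The 4 at equal length did not include Gabrd, the gene of the main call. For H3K4me1 less, the 5 became 1 (2.71%) at gene ends alone with a separation of 1 kb, 2 (3.66%) with 5 kb, 2 (5.99%) with 5 points, and 5 to 12 with 1 line left out: 12 (15.2%) without 236R. For H3K4me1 more, the 0 became 1 (7.53%) with stricter q, 3 (12.8%) in windows with 50 kb each side, 3 (7.37%) at gene ends, and 0 to 6 with 1 line left out: 1 (7.86%) without 159-1, 6 (10.1%) without 236L and 4 (29.7%) without 236R. For H3K4me2 less, the 2 became 1 with stricter q (5.98%), at equal length (3.60%), in the gene body alone (4.57%) and with 5 kb (1.90%), 0 (3.87%) with 5 points, and 3 to 6 with 1 line left out: 5 (9.18%) without 159-1 and 6 (11.51%) without 236R. At gene ends 1 gene (1.78%) had less H3K4me2, and it was neither Grid1 nor Gabra5. For H3K4me2 more, the 0 became 2 (2.01%) at equal length, 1 (3.14%) with 50 kb, and 0 to 5 with 1 line left out: 2 (2.09%) without 1014, 5 (2.66%) without 236L and 2 (10.3%) without 236R. The median H3K4me2 difference of 0.0520 points became 0.283 at equal length and 1.66 at gene ends, and ranged from −0.118 to 0.0454 with 1 line left out. KDM6A genes numbered 8 (22.3%) in place of 15 with a minimum of 2 kb. At gene ends the difference reversed for H3K4me1 at Grid1 (2.26 kb), Grik5 (0.107 kb) and Grin2d (0.0525 kb) and for H3K4me2 at Grid1 (0.277 kb). Of the 13 separated gene and mark pairs, 8 lost the call at equal length and 7 with stricter q. Leaving out a line can only keep or widen a gap, so no call could be lost that way and it says nothing about stability. Apart from the fewer lines or the smaller windows themselves, the cause was not tested. No paired analysis was possible because the replicate numbers only name different lines in the 2 groups, and no test was fitted.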
